A study of Mus musculus with 18 samples.

Results

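The heat shock genes described here were 10 genes taken by name: Hspa1a, Hspa1b, Hsph1, Dnajb1, Hsp90aa1, Hsp90ab1, Hspa8, Hspe1, Hspd1 and Hsf1, 10 of the 55536 gene identifiers in the count table. They were chosen by their own measured levels, to show library by library where a stress signal sits: the third thymic OTII library and the peripheral Cbl-b-/-W131AOTII libraries had been singled out from their values for these genes, so levels in those libraries are a description and carry no test. RNA was sequenced in 18 libraries, 6 groups of 3, each from sorted CD4 T cells of C57BL/6 mice with the OTII transgene, a T cell receptor against an ovalbumin peptide. The 4 peripheral groups were naive (CD44 low, CD62L positive), CD25-negative, Va2-positive CD4 T cells from spleen and lymph nodes, and the 2 thymic groups were CD4 single-positive thymocytes sorted by the same absence of CD25 and presence of Va2. Peripheral Cbl-b-/-W131AOTII cells lacked the E3 ubiquitin ligase Cbl-b and had the W131A substitution of the signalling kinase ZAP-70. Peripheral Cbl-b-/- OTII cells lacked Cbl-b alone, peripheral and thymic W131AOTII cells carried W131A alone, and peripheral and thymic OTII cells carried neither, so all 6 groups shared the OTII receptor. Per the labels' protocols the sorted cells came from 6 Cbl-b-/-W131AOTII, 3 Cbl-b-/-, 12 W131AOTII and 3 OTII mice, with 2 mice named per group for Cbl-b-/-W131AOTII and 4 for W131AOTII. The sources used here do not say how mice map to libraries, how old they were, or how and when cells were handled and sorted, so a p-value reflects library-to-library spread, which may be technical.

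Heat shock proteins are chaperones that hold, fold and refold other proteins. Part of the family is made at all times, while Hspa1a and Hspa1b, the inducible Hsp70 genes, are nearly silent in resting cells and are switched on by the transcription factor HSF1 when proteins unfold, as during heat or harsh handling. HSF1 binds heat shock elements, inverted repeats of the triplet GAA and its complement TTC.

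Promoters are shown because the inducible pair and Hspe1 carry that element close to their start. RefSeq promoter windows on GRCm38.p6 were held for 6 of the 10 genes (Hspa1a, Hspa1b, Hsph1, Dnajb1, Hspe1 and Hspd1), and the 250 bases before each start were searched on both strands for GAANNTTC and TTCNNGAA, each of which reads the same on either strand and which may overlap each other. Of 32851 promoter windows of the same length, 6.69% held GAANNTTC, 7.17% held TTCNNGAA, and 0.466% held a run of 3 triplets, in which the motifs overlap (either motif extended by NNGAA or NNTTC so that the triplets alternate). Capitals mark the matches. The first pair of lines gives all 250 bases before the start of Hspa1b (chr17:34959239-34959488, minus strand) and Hspa1a (chr17:34972157-34972406, minus strand), the inducible neighbours, in which no exon is annotated.
Hspa1b: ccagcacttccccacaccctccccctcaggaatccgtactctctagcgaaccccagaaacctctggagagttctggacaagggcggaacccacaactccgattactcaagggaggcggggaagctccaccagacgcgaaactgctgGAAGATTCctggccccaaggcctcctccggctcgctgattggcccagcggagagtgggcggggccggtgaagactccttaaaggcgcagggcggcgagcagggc
Hspa1a: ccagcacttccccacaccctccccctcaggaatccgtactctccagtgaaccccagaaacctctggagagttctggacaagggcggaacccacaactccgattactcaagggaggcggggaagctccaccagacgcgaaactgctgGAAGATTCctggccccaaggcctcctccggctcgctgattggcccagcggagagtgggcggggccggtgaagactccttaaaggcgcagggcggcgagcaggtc
These promoters were the same at 247 of 250 bases. Counted from 1 at the 5′ end of the Hspa1b line, they differed by T44C, C47T and G249T (the Hspa1b base first), none of them in the element, which lay 104 to 97 bases before the start in both. The next lines give 30 bases around the elements of Hspe1 (chr1:55088053-55088082, plus strand), which held a run of overlapping triplets, and Hsph1 (chr5:149636351-149636380, minus strand), which held a single TTCNNGAA. Neither window is free of exons: that of Hspe1 overlaps an annotated exon of Hspd1, and that of Hsph1 an annotated exon of Hsph1 itself, whose outermost start lies upstream of the element.
Hspe1: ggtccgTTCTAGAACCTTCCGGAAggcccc
Hsph1: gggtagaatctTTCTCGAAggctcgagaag
The run of Hspe1 lies 89 to 72 bases before its start and, read on the other strand, 144 to 127 bases before a start of Hspd1, which is transcribed the other way from the same stretch of chromosome 1. No match was found in the windows of Dnajb1. These matches describe letters and do not show that a factor was bound.

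Column totals ran from 19708218 to 36218772 counts. The 6 CD4 T cell markers were present in all 18 libraries, with summed levels of 13724 to 25212.6 CPM (counts relative to a library total scaled by TMM, the trimmed mean of M values). Cblb, the targeted gene, was lower in Cbl-b-/- OTII than in OTII cells (log2 fold change -0.89, SE 0.17, edgeR quasi-likelihood test with Benjamini-Hochberg adjustment, adjusted p = 0.00605), and likewise when W131A was present in both (-0.76, SE 0.17, edgeR adjusted p = 0.0142). The second peripheral W131AOTII library stood apart by B cell transcripts, with the 10 B cell markers summing to 5046.5 CPM against 2269.6 and 2391 CPM in its 2 sister libraries; it was the highest library for none of the 10 heat shock genes. In bulk libraries, fewer cells expressing a gene and less RNA per cell cannot be told apart.

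All 10 genes passed the filter on low counts, Hspa1a with 2244 counts over all 18 libraries. Per kilobase of exon, Hsp90ab1 was the most abundant and Hspa1a the least. The 10 genes together took 0.168% to 0.251% of the counts in 17 libraries and 0.402% in the first thymic W131AOTII library.

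Hspa1b and Hspa1a, the inducible Hsp70 chaperones (chromosome 17, 34956436 to 34959238 and 34969190 to 34972156, GRCm38), varied more than any of the other 8 genes. Hspa1b had 89.6, 59.7 and 130.3 CPM in peripheral Cbl-b-/-W131AOTII cells, 25.5, 34.5 and 33.9 CPM in peripheral Cbl-b-/- OTII cells, 1.67, 1.125 and 19.5 CPM in peripheral W131AOTII cells, and 0.567, 0.957 and 1.004 CPM in peripheral OTII cells. In the thymus it had 2.703, 0.632 and 0.202 CPM in W131AOTII cells, against 0.283, 0.0982 and 113 CPM in OTII cells. All 6 Cbl-b-/- libraries were high, as were 2 single libraries whose sister libraries were low: the third of thymic OTII and the third of peripheral W131AOTII.

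Ordered by mean level, Hspa1b stood at 93.2 ± 35.4 CPM in peripheral Cbl-b-/-W131AOTII, 37.8 ± 65.1 CPM in thymic OTII, 31.3 ± 5.05 CPM in peripheral Cbl-b-/- OTII, 7.42 ± 10.4 CPM in peripheral W131AOTII, 1.18 ± 1.34 CPM in thymic W131AOTII and 0.843 ± 0.240 CPM in peripheral OTII cells (SD, n = 3 each). The SD exceeds the mean in thymic OTII, peripheral W131AOTII and thymic W131AOTII, and thymic OTII overlaps each of the other 5 groups. The libraries of Cbl-b-/-W131AOTII, Cbl-b-/- OTII and peripheral OTII did not overlap one another.

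Hspa1a followed the same libraries at a lower level. It had 12.1, 8.18 and 19.8 CPM in peripheral Cbl-b-/-W131AOTII cells, 3.80, 4.14 and 4.16 CPM in Cbl-b-/- OTII cells, 0.340, 0.289 and 3.15 CPM in W131AOTII cells, and 0.134, 0.0684 and 0 CPM in OTII cells. In the thymus it had 0.348, 0.0287 and 0 CPM in W131AOTII cells, against 0.0472, 0.131 and 26.9 CPM in OTII cells. The 2 libraries with a count of 0 allow up to 0.108 CPM (the third of peripheral OTII) and 0.121 CPM (the third of thymic W131AOTII), taking 3 counts as the limit, for counting error only. Pearson's r between the pair was 0.97 over the 18 libraries, which share groups and, for these near-identical genes, sequence: 62.3% of the 50-base windows of Hspa1b and 58.8% of those of Hspa1a occur in transcripts of the other gene, so the split of reads between them is uncertain. Hspa1b took 80.7% of the pair's counts in the third thymic OTII library and 86.8% to 88.1% in the Cbl-b-/-W131AOTII libraries.

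**Figure D1:**
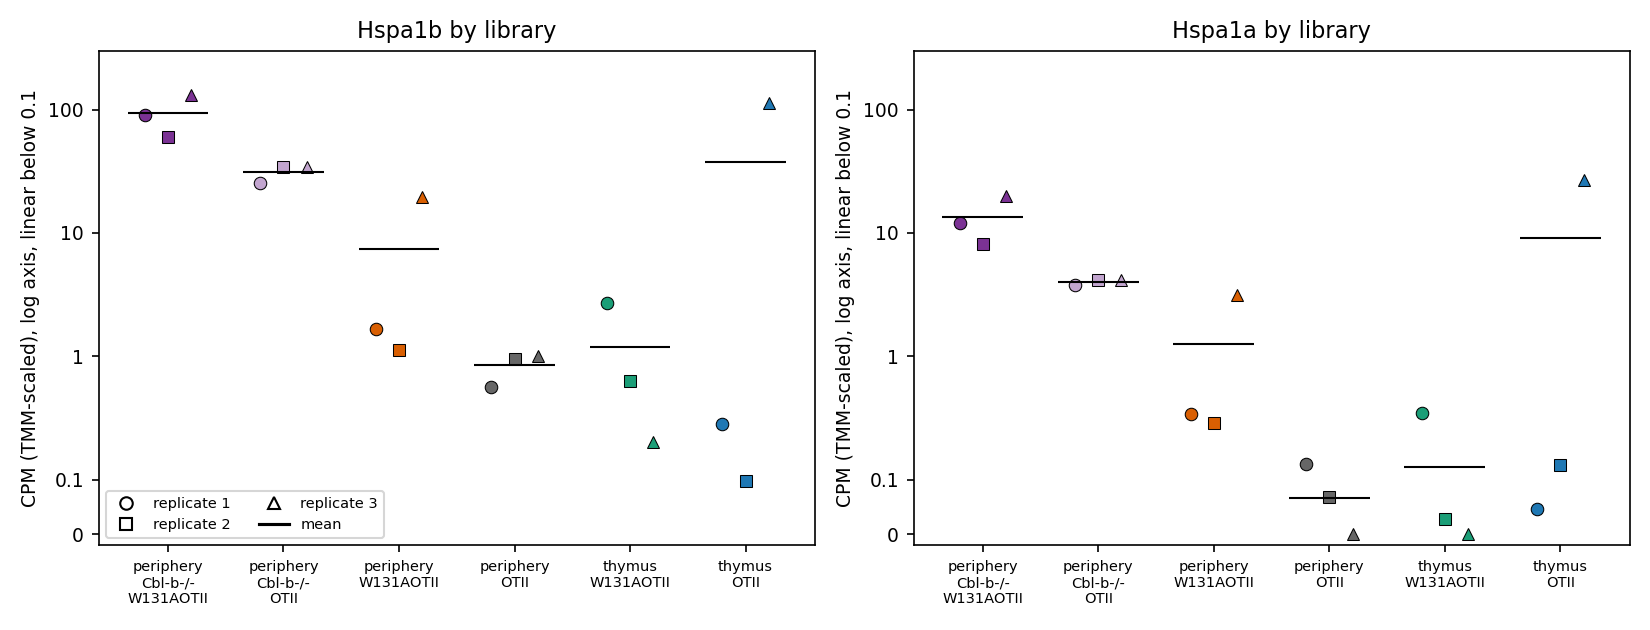
Levels of Hspa1b (left) and Hspa1a (right) in each library, in TMM-scaled CPM on a log axis that is linear below 0.1, with 1 marker per replicate and a bar for the mean of the 3. All 6 Cbl-b-/- libraries are high, and in thymic OTII and peripheral W131AOTII cells the third library stands far above its sister libraries (113 CPM of Hspa1b in thymic OTII).

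Hsp90aa1 (chromosome 12, 110690605 to 110702728), the inducible form of the Hsp90 chaperone that matures kinases and receptors, was the other gene that was high in the Cbl-b-/- cells. It had 86.1, 65.4 and 68.2 CPM in peripheral Cbl-b-/-W131AOTII cells, 57.2, 55.9 and 65.3 CPM in Cbl-b-/- OTII cells, 39.6, 41.9 and 46.0 CPM in W131AOTII cells, and 28.9, 37.7 and 34.2 CPM in OTII cells. The thymic libraries had 67.3, 27.4 and 37.5 CPM in W131AOTII cells, against 33.7, 29.0 and 40.6 CPM in OTII cells. The 6 Cbl-b-/- libraries lay above the other 6 peripheral ones without overlap, and only the first thymic W131AOTII library reached their range. The third thymic OTII library, so high for Hspa1b, had 40.6 CPM. Pearson's r with Hspa1b was 0.80 over the 18 libraries. Of the 50-base windows of Hsp90aa1, 47.5% also occur in other annotated transcripts, for the most part the pseudogene Gm12346.

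Hsp90ab1 (chromosome 17, 45567775 to 45573271), the constitutive Hsp90, did not follow that pattern. It had 983, 1115 and 802 CPM in peripheral Cbl-b-/-W131AOTII cells, 1012, 1094 and 927 CPM in Cbl-b-/- OTII cells, 1567, 1544 and 1838 CPM in W131AOTII cells, and 1163, 1227 and 1199 CPM in OTII cells. Thymic W131AOTII cells had 2914, 1244 and 1525 CPM, against 1157, 1301 and 1204 CPM in thymic OTII cells. The first thymic W131AOTII library was the highest of all 18, the 3 peripheral W131AOTII libraries lay above every other peripheral library, and the 6 Cbl-b-/- libraries were the 6 lowest.

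**Figure D2:**
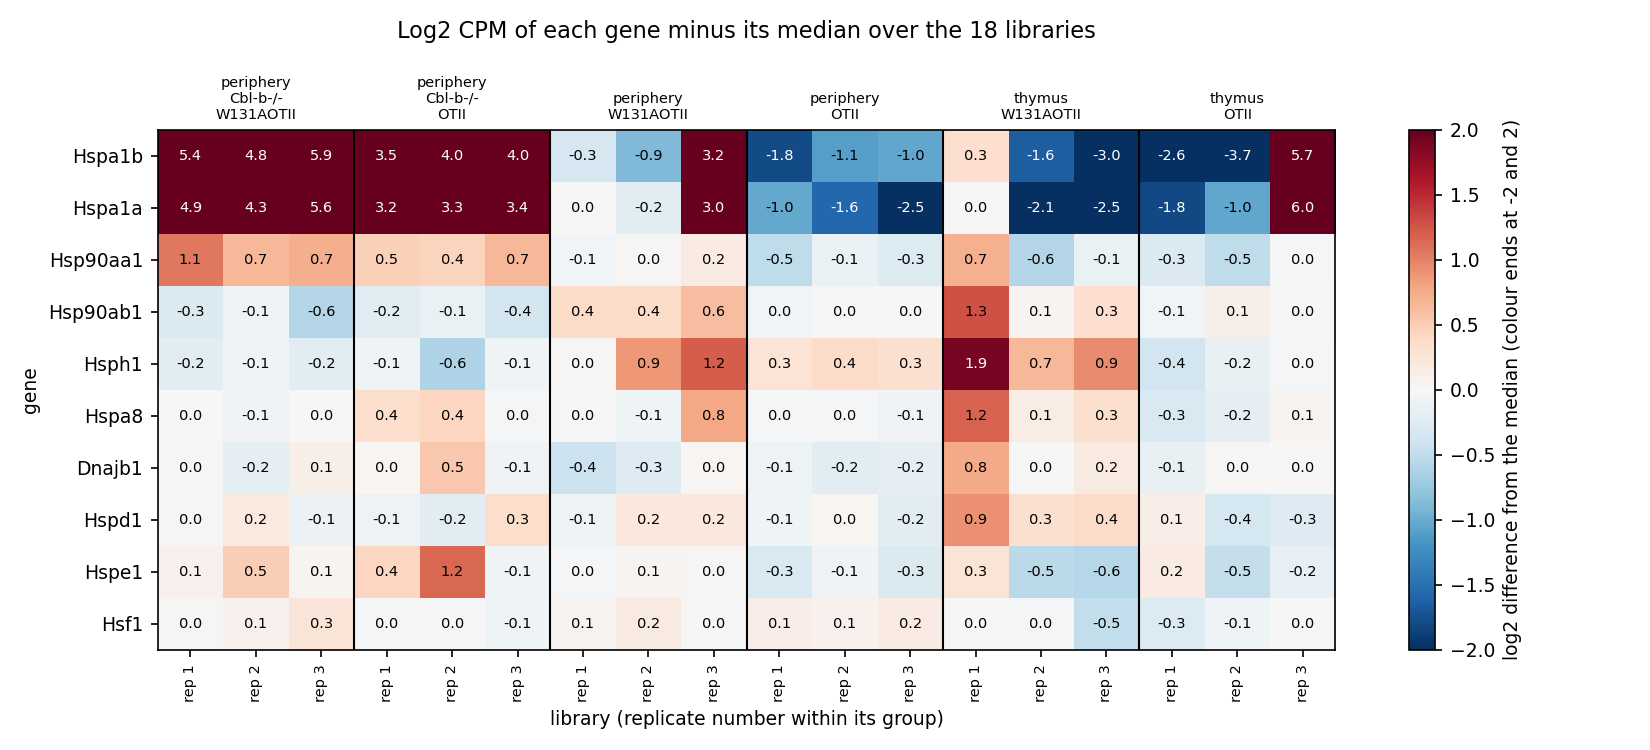
Log2 CPM (prior count 2) of each heat shock gene minus its median over the 18 libraries, by gene (rows) and library (columns, in groups of 3). Hspa1b, Hspa1a and Hsp90aa1 are high in the 6 Cbl-b-/- libraries, the third thymic OTII library is high for Hspa1b and Hspa1a, and the first thymic W131AOTII library is high for Hsp90ab1, Hsph1, Hspa8, Dnajb1 and Hspd1.

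Hspa8 (chromosome 9, 40800984 to 40810087), the constitutive Hsp70, was nearly level in peripheral Cbl-b-/-W131AOTII and OTII cells and varied more among the libraries of the other 4 groups. It had 162, 154 and 162 CPM in peripheral Cbl-b-/-W131AOTII cells, 206, 218 and 157 CPM in Cbl-b-/- OTII cells, 162, 153 and 276 CPM in W131AOTII cells, and 158, 158 and 153 CPM in OTII cells. Thymic W131AOTII cells had 364, 178 and 202 CPM, against 131.1, 142 and 168 CPM in thymic OTII cells. The first thymic W131AOTII library was highest and the third peripheral W131AOTII library second. Of the 50-base windows of Hspa8, 39.4% occur in other annotated transcripts, and 3 small nucleolar RNA genes lie inside it.

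Hsph1 (chromosome 5, 149614287 to 149636376), the Hsp110 protein that exchanges the nucleotide of Hsp70, was also highest in those 2 libraries. It had 53.9, 59.7 and 54.1 CPM in peripheral Cbl-b-/-W131AOTII cells, 59.3, 40.7 and 59.0 CPM in Cbl-b-/- OTII cells, 63.8, 114 and 144 CPM in W131AOTII cells, and 76.0, 81.7 and 78.5 CPM in OTII cells. Thymic W131AOTII cells had 232, 99.6 and 120.2 CPM, against 48.0, 56.3 and 61.3 CPM in thymic OTII cells. The first thymic W131AOTII library was 3.71-fold above the median library, and the thymic groups did not overlap. None of the 50-base windows of Hsph1 occurs in another gene.

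Dnajb1 (chromosome 8, 83608193 to 83612653), the Hsp40 that brings clients to Hsp70, had 178, 153 and 189 CPM in peripheral Cbl-b-/-W131AOTII cells, 179, 253 and 167 CPM in Cbl-b-/- OTII cells, 129, 146 and 178 CPM in W131AOTII cells, and 163, 149 and 154 CPM in OTII cells. Thymic W131AOTII cells had 294, 174 and 198 CPM, against 157, 177 and 174 CPM in thymic OTII cells. Its highest libraries were the first of thymic W131AOTII and the second of Cbl-b-/- OTII, and the third thymic OTII library lay between its 2 sister libraries.

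Hspd1 and Hspe1, the mitochondrial chaperonin and its lid, lie head to head on chromosome 1 (55077835 to 55088243 and 55088132 to 55091307) and overlap, so reads from the shared stretch cannot be assigned without strand. Of the 50-base windows, 42.1% of those of Hspd1 and 22.8% of those of Hspe1 also occur in other annotated transcripts. For Hspd1 these are for the most part the pseudogene Hspd1-ps3. Hspd1 had 97.6, 65.1 and 67.9 CPM in thymic W131AOTII cells, against 56.8, 40.7 and 43.3 CPM in thymic OTII cells, and 44.6 to 66.2 CPM in the 12 peripheral libraries. Hspe1 had 19.5, 32.0 and 13.5 CPM in Cbl-b-/- OTII cells, against 11.6, 13.6 and 11.8 CPM in peripheral OTII cells, and 9.68 to 20.1 CPM in the other 12 libraries. The 3 thymic W131AOTII libraries thus lay above the 3 of thymic OTII for Hspd1 but not for Hspe1, whose highest library was the second of Cbl-b-/- OTII. That library also had the highest share of counts on ribosomal protein genes, 1.79% against 0.383% to 1.06% in the other 17, and the part of this in the Hspe1 level was not tested.

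Hsf1 (chromosome 15, 76477422 to 76501913), the transcription factor of the response, hardly varied. Its lowest library had 109.8 CPM (the third of thymic W131AOTII) and its highest 186 CPM (the third of Cbl-b-/-W131AOTII), a ratio of 1.69. It had 155 CPM in the third and 128 and 146 CPM in the other thymic OTII libraries. Its RNA level thus did not set apart the libraries that were high for Hspa1b; HSF1 is known to be controlled mainly as a protein.

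**Figure D3:**
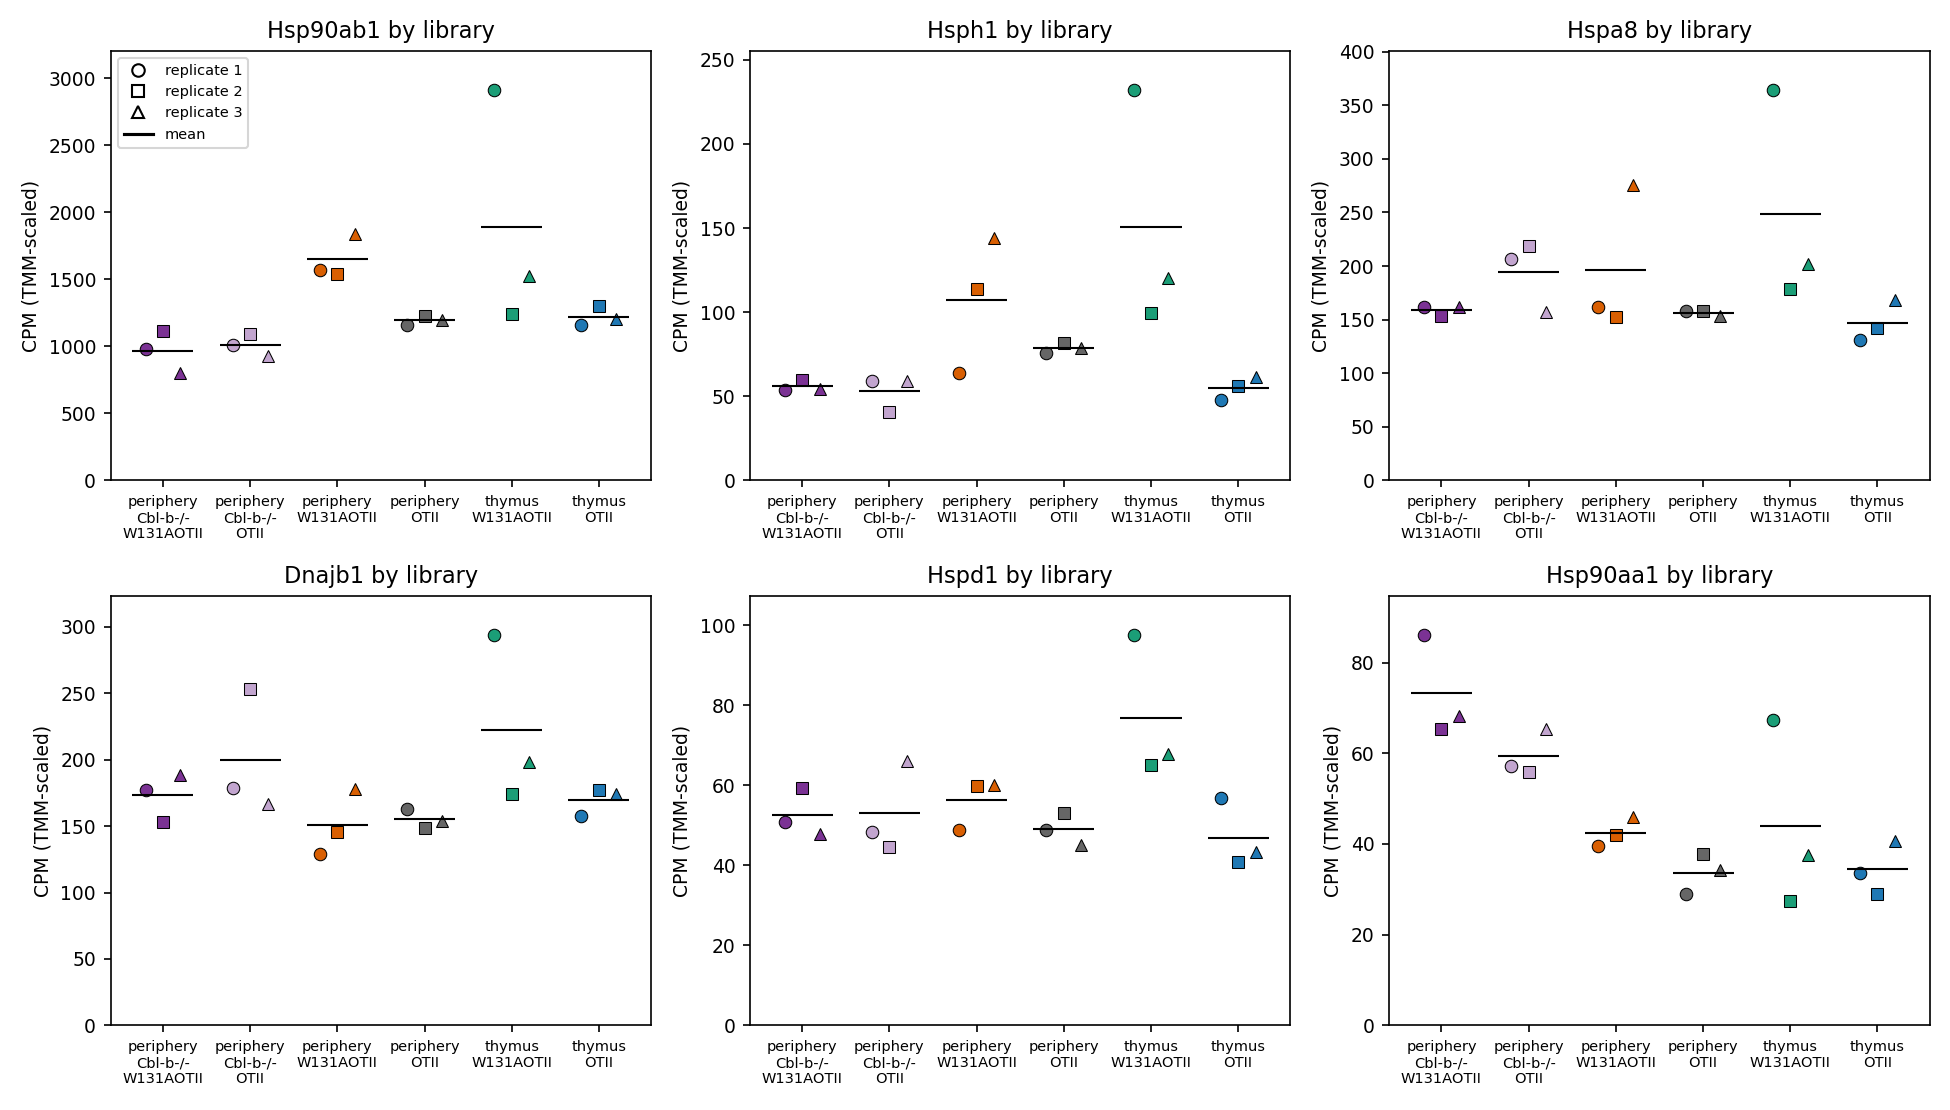
Levels of 6 heat shock genes in each library, in TMM-scaled CPM on linear axes from 0, with 1 marker per replicate and a bar for the mean of the 3. The first thymic W131AOTII library is highest for all panels except Hsp90aa1, where the first Cbl-b-/-W131AOTII library is (86.1 CPM).

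The libraries highest for Hspa1b and those highest for most of the genes outside the inducible pair were for the most part different ones. Of the 10 genes, 5 (Hsp90ab1, Hsph1, Hspa8, Dnajb1 and Hspd1) had their highest level in the first thymic W131AOTII library, which had 2.703 CPM of Hspa1b. The third thymic OTII library, with 113 CPM of Hspa1b, lay between -0.26 (Hspd1) and 0.06 (Hspa8) log2 units from the median library for the other 8 genes. Some libraries were high in both ways: the third of peripheral W131AOTII had 19.5 CPM of Hspa1b, 276 CPM of Hspa8 and 144 CPM of Hsph1, and the second of Cbl-b-/- OTII had 34.5 CPM of Hspa1b, 253 CPM of Dnajb1 and 218 CPM of Hspa8. Pearson's r of Hspa1b was -0.39 with Hsp90ab1 and -0.32 with Hsph1, while r between Hsp90ab1 and Hsph1 was 0.84, over 18 libraries that share groups.

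The genes most like Hspa1b over the 18 libraries, outside the 10 and leaving out predicted genes, pseudogenes and receptor segments, were Jun (r = 0.90), Tulp2 (0.86), Plag1 (0.82), Ppp1r15a (0.81) and Snapc1 (0.77). Jun, an immediate early transcription factor, had 103, 55.6 and 87.7 CPM in Cbl-b-/-W131AOTII, 30.6, 72.2 and 31.3 CPM in Cbl-b-/- OTII, 20.9, 17.1 and 61.9 CPM in W131AOTII and 12.3, 15.4 and 14.1 CPM in OTII cells of the periphery. It had 5.02, 2.50 and 3.00 CPM in thymic W131AOTII cells, against 1.93, 3.77 and 80.9 CPM in thymic OTII cells. Its high libraries were those that were high for Hspa1b, including the third of thymic OTII and the third of peripheral W131AOTII. Ppp1r15a, the phosphatase subunit that ends the integrated stress response, had 136 CPM in the third thymic OTII library, against 41.4 to 85.2 CPM in the other 17. For Hspa8 the most alike were Ahsa1 (r = 0.81), Umps (0.80), Stip1 (0.78), Hdc (0.78) and Txnl4a (0.76); Ahsa1 and Stip1 are Hsp90 co-chaperones, at 225 and 437 CPM in the first thymic W131AOTII library, above all others. For Hsf1 they were Gps2 (0.90), Cars2 (0.89), Pcsk4 (0.89), Ap1g2 (0.88) and Kri1 (0.88).

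**Figure D4:**
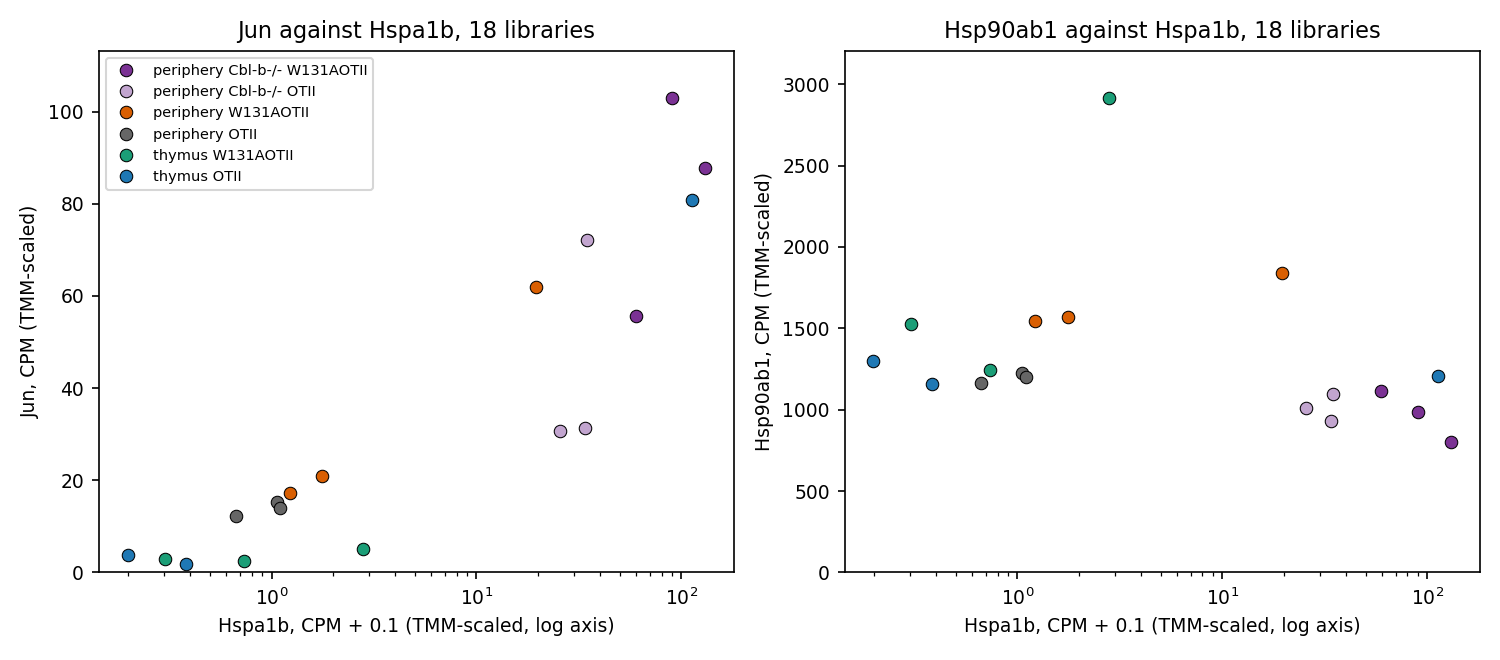
Jun (left) and Hsp90ab1 (right) against Hspa1b in the 18 libraries, as TMM-scaled CPM, with 0.1 added to Hspa1b for its log axis. Jun is high where Hspa1b is high, while the library with most Hsp90ab1 (2914 CPM, thymic W131AOTII) has 2.703 CPM of Hspa1b.

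Fos and Junb, partners of Jun, were high in the third thymic OTII library too: Fos had 12.0, 8.32 and 47.1 CPM and Junb 152, 124 and 317 CPM in the 3 thymic OTII libraries. Another partner, Fosb, had 0.0472 to 0.0879 CPM in these libraries, below the level of 3 counts (0.0982 to 0.142 CPM). Egr1, which reports T cell receptor signals, had 528, 448 and 529 CPM in the same libraries, so it did not set the third apart. The share of counts on mitochondrially encoded genes was 0.896%, 0.404% and 0.524% in these libraries, and the first thymic W131AOTII library had the lowest share of all 18, 0.254%. Their part in the heat shock levels was not tested.

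The effect of losing Cbl-b was tested in Cbl-b-/- OTII against OTII cells of the periphery, groups that hold none of the libraries singled out. The 10 genes were still chosen with earlier results of these data known, so this is not an independent test. Of the 10 genes, 1 rose: Hsp90aa1, at 59.5 ± 5.12 CPM in Cbl-b-/- OTII and 33.6 ± 4.45 CPM in OTII cells (SD, n = 3 each), a log2 fold change of 0.82 (SE 0.23, edgeR quasi-likelihood test, adjusted p = 0.0343). Of all 15204 genes tested, 8.21% changed in this comparison, 5.22% upward and 2.99% downward, so 1 of 10 is near the background. That call was lost when any of the 6 libraries was left out (adjusted p 0.0559 to 0.145).

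Hspa1b and Hspa1a had the largest fold changes of the 10 here and missed the threshold. Hspa1b was at 31.3 ± 5.05 CPM in Cbl-b-/- OTII and 0.843 ± 0.240 CPM in OTII cells (SD, n = 3 each), a log2 fold change of 5.21 (SE 1.94, edgeR adjusted p = 0.112), and Hspa1a had 5.79 (SE 1.98, edgeR adjusted p = 0.0809). The spread in this fit is shared over the 6 groups, among them thymic OTII and peripheral W131AOTII with 1 high library each. With the 2 groups alone the edgeR adjusted p was 1.65e-05 for Hspa1b and 0.000573 for Hspa1a, and with DESeq2 it was 0.0108 for both. Hspa1a had 4, 2 and 0 counts in the OTII libraries and 76, 91 and 122 in the Cbl-b-/- OTII libraries. With the 2 groups alone it thus passed the filter on low counts only through the group where it was high, so its p-value there is no added support. The libraries of the 2 groups did not overlap for 7 of the 10 genes, against 30.3% of all genes tested. Among them Hsph1 had a log2 fold change of -0.57 (SE 0.27, edgeR adjusted p = 0.191) and Dnajb1 0.36 (SE 0.18, edgeR adjusted p = 0.217). Hspe1 missed the threshold at 0.81 (SE 0.27, edgeR adjusted p = 0.0666).

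The effect of W131A was tested in W131AOTII against OTII cells of the periphery, which share the OTII libraries with the comparison above. Here too the genes were chosen with earlier results of these data known. None of the 10 genes passed the threshold in edgeR, 1 had an unadjusted p under 0.05 (Hsp90ab1) and none passed in DESeq2; of all genes tested, 1.93% changed, 1.68% upward and 0.25% downward. Hsp90ab1 averaged 1650 ± 163 CPM in W131AOTII and 1196 ± 32.3 CPM in OTII cells (SD, n = 3 each), a log2 fold change of 0.46 (SE 0.21, edgeR adjusted p = 0.491, and 0.016 with the 2 groups alone). The libraries of the 2 groups did not overlap for 5 of the 10 genes, against 19.2% of all genes tested. The fold change of Hspa1b rested on the third W131AOTII library: it was 3.13 (SE 1.89, edgeR adjusted p = 0.743) and 0.73 without that library. Hspa1a had a log2 fold change of 4.10 (SE 2.08, edgeR adjusted p = 0.603) and of 2.12 at the lowest with 1 library left out. Its counts were low, with 12 and 9 in the first and second W131AOTII libraries and 4, 2 and 0 in the OTII libraries. Hspa8 had a log2 fold change of 0.33 with the third W131AOTII library and -0.0023 without it, and Hsph1 had 0.45 with it and 0.17 without it.

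**Figure D5:**
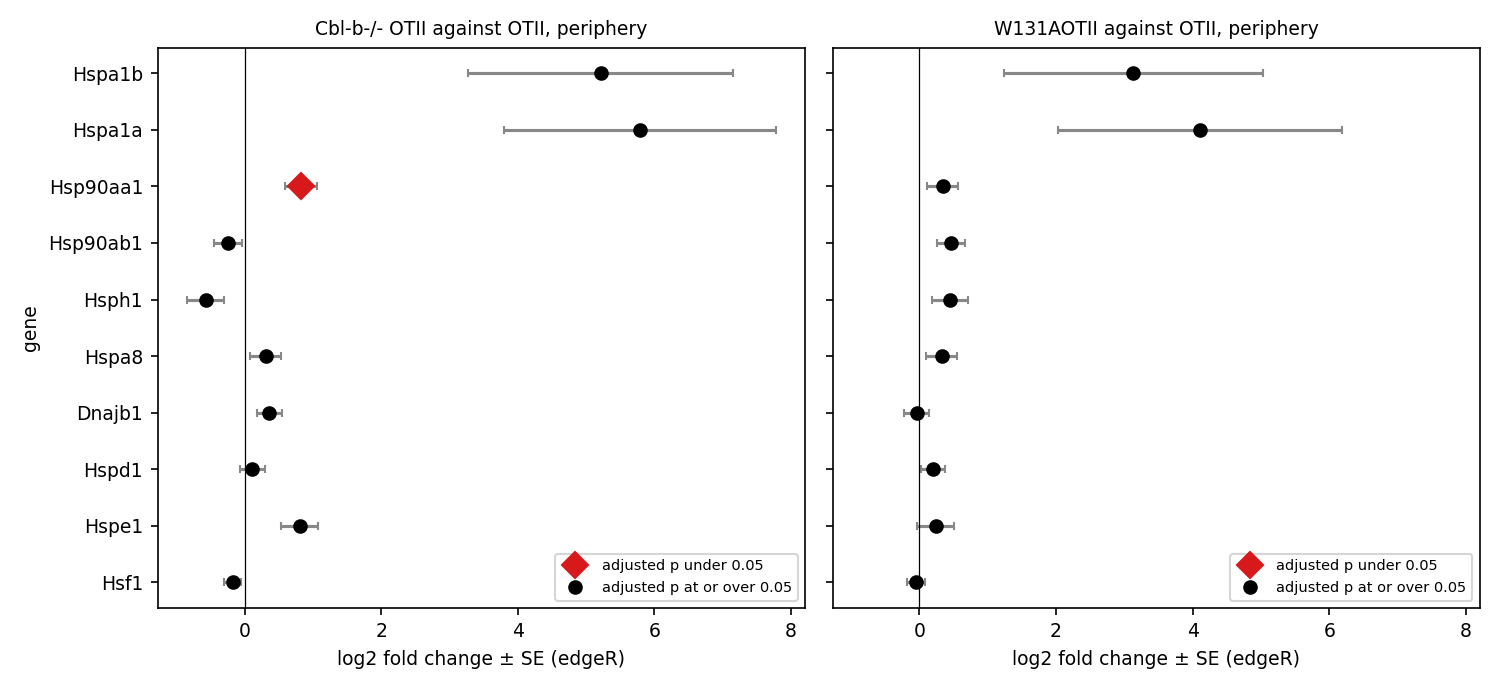
Log2 fold changes with their SE (edgeR, n = 3 per group) of the 10 heat shock genes in peripheral Cbl-b-/- OTII against OTII cells (left) and W131AOTII against OTII cells (right), on 1 axis scale. Hsp90aa1 (red diamond, left, 0.82) is the only point past the threshold, and the inducible pair has the largest values and the widest errors.

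The remaining comparisons hold the libraries that led to the choice of these genes, so their values are a description. In Cbl-b-/-W131AOTII against W131AOTII cells of the periphery, the log2 fold change was 3.66 for Hspa1b, 3.41 for Hspa1a and 0.79 for Hsp90aa1, and -0.77 for Hsp90ab1 and -0.94 for Hsph1. Of all genes tested, 9.25% changed in this comparison, 3.18% upward (483) and 6.08% downward (924). Groups did not overlap for 5 of the 10, against 39.8% of all genes. Scaled by library size instead, 960 genes rose and 531 fell, and the median of all genes moved up by 0.15; the signs of these 5 genes stayed as given, while Hspd1 had 0.05 by library size and -0.10 by TMM. In Cbl-b-/-W131AOTII against Cbl-b-/- OTII cells the inducible pair stood 1.57 (Hspa1b) and 1.72 (Hspa1a) log2 units higher, among 4 of the 10 genes with no overlap of libraries (21.1% of all genes). Of all genes tested, 1.89% changed, 0.802% upward and 1.09% downward. By library size that split was 186 higher and 116 lower, against 122 and 165 by TMM.

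In thymic W131AOTII against OTII cells the libraries did not overlap for 3 of the 10 genes, Hsph1 (log2 fold change 1.45), Hspa8 (0.75) and Hspd1 (0.71), against 17% of all genes tested. Of all genes tested, 2.77% changed, 1.73% upward and 1.04% downward. Hspa1b stood at 1.18 ± 1.34 CPM in W131AOTII and 37.8 ± 65.1 CPM in OTII cells (SD, n = 3 each), and the third OTII library alone made up that difference, since the other 2 had 0.283 and 0.0982 CPM. In peripheral against thymic OTII cells, Hspa1a had a log2 fold change of -6.94 and Hspa1b -5.48, where 18.3% of all genes tested changed, 7.75% upward and 10.6% downward. The groups overlapped for both, and all of the level of Hspa1a in thymic OTII cells beyond 0.131 CPM came from the same library; 2 of the 10 genes did not overlap, against 39.5% of all genes. The interaction of W131A and Cbl-b-/- in the periphery was -1.56 (SE 2.40) for Hspa1b, where 0.631% of all genes changed, 0.0395% upward and 0.592% downward.

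The other genes of the pathway, 54 chaperones and co-chaperones of which 50 were tested, varied less than the inducible pair. Dnaja4, an Hsp40 co-chaperone, was the one that changed most firmly. It had 12.2, 12.1 and 13.9 CPM in peripheral W131AOTII cells, against 4.64, 4.14 and 4.88 CPM in peripheral OTII cells, a log2 fold change of 1.48 (SE 0.23, edgeR adjusted p = 0.000746). It had 6.53, 4.68 and 3.81 CPM in thymic W131AOTII cells, against 1.18, 1.47 and 2.20 CPM in thymic OTII cells (1.63, SE 0.25, edgeR adjusted p = 0.000558). It rose in both tissues, past the threshold without any one of the libraries compared. The third libraries of thymic OTII (2.20 CPM) and peripheral W131AOTII (13.9 CPM), which were high for Hspa1b, were the highest of their groups for Dnaja4 too. Cbl-b-/-W131AOTII cells had 12.3, 11.6 and 12.6 CPM and Cbl-b-/- OTII cells 6.60, 6.18 and 8.13 CPM. The Cbl-b-/- OTII libraries thus lay above those of peripheral OTII, while those of Cbl-b-/-W131AOTII overlapped those of peripheral W131AOTII. Dnaja4 was the only one of the 50 to pass in peripheral W131AOTII against OTII cells, with a median log2 fold change of the 50 of 0.12 beside -0.0005 for all genes.

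In Cbl-b-/- OTII against OTII cells, 6 of the 50 rose and none fell, with a median log2 fold change of 0.12 beside 0.04 for all genes. These were Cacybp (0.72, SE 0.18), Hsbp1 (0.61, SE 0.18), Sugt1 (0.55, SE 0.14), Ubb (0.47, SE 0.14), Cct6a (0.43, SE 0.11) and Cct4 (0.41, SE 0.12), at edgeR adjusted p of 0.0223 to 0.0489. Sugt1 and Cacybp bind Hsp90 or its clients, Hsbp1 binds HSF1 and restrains it, Ubb encodes a ubiquitin chain, and Cct4 and Cct6a are subunits of the cytosolic chaperonin TRiC. Between 0 and 7 of the 50 were called without 1 of the 6 libraries. They were 12% of the 50, beside the 8.21% of all genes that changed.

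In Cbl-b-/-W131AOTII against W131AOTII cells, 1 of the 50 rose, the Hsp40 gene Dnajb6 (log2 fold change 0.51, SE 0.15), and 8 fell, with a median of -0.15 beside 0.03 for all genes. They were 18% of the 50, where 9.25% of all genes changed, 3.18% upward and 6.08% downward. Among those that fell were Hspbp1 (-0.68, SE 0.21), a nucleotide exchange factor of Hsp70, Fkbp5 (-0.75, SE 0.22), an Hsp90 co-chaperone, Dnajb5 (-0.71, SE 0.18), an Hsp40, Stip1 (-0.64, SE 0.17), which links Hsp70 to Hsp90, Clpb (-0.41, SE 0.13), a mitochondrial disaggregase, Hspa9 (-0.38, SE 0.11), the mitochondrial Hsp70, and Cct8 (-0.36, SE 0.11), at edgeR adjusted p of 0.0231 to 0.048. The count of 9 was 0 without the second W131AOTII library, 0 without the third thymic OTII, the third peripheral W131AOTII and the first thymic W131AOTII libraries (left out for their own heat shock levels, after seeing the data), and 4 when scaled by library size. Stip1 had 198, 270 and 316 CPM in the W131AOTII libraries, against 158, 180 and 166 CPM in Cbl-b-/-W131AOTII cells, so the third W131AOTII library was highest, as for Hspa8 and Hsph1.

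In thymic W131AOTII against OTII cells, 4 of the 50 rose and none fell, 8% beside 2.77% of all genes changed (1.73% upward), with a median of 0.20 beside 0.01 for all genes: Dnaja4, Chordc1 (0.68, SE 0.15, edgeR adjusted p = 0.0184), an Hsp90 partner, Stip1 (0.68, SE 0.17, adjusted p = 0.0375) and Hspa9 (0.42, SE 0.11, adjusted p = 0.0391). Stip1 had 437, 272 and 281 CPM in W131AOTII cells, against 198, 224 and 197 CPM in OTII cells, and lost its call without the first W131AOTII library or any OTII library. Hspa9 lost its call when any of the 6 libraries was left out (edgeR adjusted p 0.0522 to 0.176). Chordc1 lost its call in 3 of those 6 fits. In peripheral against thymic OTII cells 4 of the 50 rose and 3 fell, 14% beside the 18.3% of all genes that changed. Dnaja4 (1.49, SE 0.25), Hspa9 (0.59, SE 0.11), Dnaja3 (0.44, SE 0.11) and Dnajb2 (0.42, SE 0.14) were higher in the periphery, and Hspa4l (-1.16, SE 0.19), Fkbp5 (-0.67, SE 0.22) and Ubb (-0.48, SE 0.14) were higher in the thymus. Of the 6 fits that left out 1 library, Fkbp5 lost its call in 5 and Ubb in 3. Dnaja4, Hspa9, Dnaja3 and Hspa4l kept theirs in all 6. None of the 50 passed in Cbl-b-/-W131AOTII against Cbl-b-/- OTII cells (4 at an unadjusted p under 0.05, 1 in DESeq2) or in the interaction (9 at an unadjusted p under 0.05).

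The other lists of stress-linked genes did not follow 1 pattern either. Egr1, in the immediate early list, also reports T cell receptor signals, and the parts of stress and of such signals in these changes were not tested. Of 20 immediate early genes, of which 19 were tested, 2 rose and 2 fell in Cbl-b-/- OTII against OTII cells. They were 21.1% of the 19, beside 8.21% of all genes changed, with a median of 0.11 beside 0.04 for all genes. Gadd45b (log2 fold change 0.68) and Fosb (2.08) rose and Socs3 (-0.48) and Egr1 (-1.29, SE 0.17, edgeR adjusted p = 0.000134) fell. In Cbl-b-/-W131AOTII against W131AOTII cells 2 rose and 2 fell, 21.1% beside 9.25% of all genes changed, with a median of -0.08 beside 0.03. Fosb rose by 3.35 (SE 0.59, edgeR adjusted p = 0.00395), at 0.747 to 1.35 CPM in Cbl-b-/-W131AOTII and 0.0321 to 0.142 CPM in W131AOTII cells, the latter again near the floor. Dusp1 rose by 0.80 (SE 0.17, edgeR adjusted p = 0.0102), and Egr1 (-0.76) and Socs3 (-0.59) fell. In thymic W131AOTII against OTII cells 1 rose, Socs3 (1.41), and 6 fell, namely Fos (-2.12), Nr4a1 (-0.96), Zfp36 (-0.78), Dusp1 (-0.75), Egr1 (-0.62) and Ier5 (-0.57), with a median of -0.57 beside 0.01. They were 36.8% of the 19, beside 2.77% of all genes changed. Fos had 5.45, 3.94 and 6.20 CPM in W131AOTII cells, against 12.0, 8.32 and 47.1 CPM in OTII cells, where the third library was the high one. The share of the 19 was 10.5% in W131AOTII against OTII cells of the periphery (2 rose, 1.93% of all genes changed). It was 10.5% in Cbl-b-/-W131AOTII against Cbl-b-/- OTII cells (2 rose, 1.89% of all genes). It was 47.4% in peripheral against thymic OTII cells (3 rose and 6 fell, 18.3% of all genes). Of 24 genes of the unfolded protein response of the endoplasmic reticulum, of which 23 were tested, Pdia3 alone (0.44) passed when Cbl-b was lost on the OTII background, while Hyou1 (-0.53) and Creld2 (-0.65) fell when it was lost on the W131AOTII background. These were 4.35% and 8.7% of the 23, beside 8.21% and 9.25% of all genes changed. Of 13 oxidative stress genes, of which 12 were tested, 2 rose and 1 fell when Cbl-b was lost on the OTII background: thioredoxin (Txn1) by 1.01 (SE 0.21, edgeR adjusted p = 0.00929), Prdx1 by 0.57, and Osgin1 (-1.43). On the W131AOTII background the ferritin light chain gene Ftl1 rose by 1.68 (SE 0.26, edgeR adjusted p = 0.00139) and Sqstm1 (-0.51) fell. The oxidative stress genes that changed were 25% of the 12 on the OTII and 16.7% on the W131AOTII background, beside 8.21% and 9.25% of all genes.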

How the data were processed

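The authors deposited raw read counts per Ensembl gene for 18 libraries of single-end 50-base reads; the submitters' processing notes list STAR 2.7.2, DESeq2 and the build GRCm38. The sources used here do not give the counting step, the strand setting or the treatment of reads with several positions. All 55536 identifiers matched GENCODE M21.

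All libraries entered 1 edgeR 4.0.16 fit (R 4.3.3): filterByExpr left 15204 genes, TMM scaling, 1 mean per group, robust quasi-likelihood F test with 12 residual degrees of freedom, Benjamini-Hochberg adjustment over all genes, threshold 0.05; the SE is the absolute log2 fold change over the square root of F. CPM values divide by TMM-scaled library totals, with a prior count of 2 on the log2 scale. The fit was tested on simulated data. The members and lists were chosen with earlier results of these data known. In the text, up to 4 genes of a list are named per comparison, by adjusted p (Hspbp1, Dnajb6, Dnajb2, Fos, Ier5 and thymic Egr1 were added after their values were seen; 1 called gene is not reported here), with Cct genes as a list of their own, and the 5 genes most like Hspa1b, Hspa8 and Hsf1. Alternatives were DESeq2 1.42.0 (size factors, Wald test), library-size scaling, no filter, the compared groups alone, a replicate block, the summed counts of Hspa1a and Hspa1b, and leaving out libraries. Same-group libraries differed beyond sampling noise.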

Additional observations from a re-analysis of the deposited data

How the results depend on the processing

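Under DESeq2 the number of all genes changed was 478 (W131AOTII against OTII, periphery), 2054 (Cbl-b-/- OTII against OTII), 2219 (Cbl-b-/-W131AOTII against W131AOTII), 682 (Cbl-b-/-W131AOTII against Cbl-b-/- OTII), 781 (W131AOTII against OTII, thymus) and 233 (interaction), 10, 1 and 8 of the 50 other chaperone genes passed in the second, the fourth and the fifth of these, and 4 of the 10 heat shock genes in the second. With no filter on low counts the 6 numbers were 772, 1907, 2243, 1180, 821 and 832, with 2, 1 and 1 other chaperone genes in the first, the fourth and the sixth, and 3 and 5 heat shock genes in the first and the second. With the compared groups alone they were 510 (the first), 3296 (the third) and 140 (the fifth), with 2, 2, 16 and 0 other chaperone genes in the first, the second, the third and the fifth, and 1 and 3 heat shock genes in the first and the second. Scaling by library size gave 4 and 1 other chaperone genes in the third and the fourth. Without the third thymic OTII, the third peripheral W131AOTII and the first thymic W131AOTII libraries, left out for their own heat shock levels after seeing the data, so that a lower spread for these genes follows from the choice, all genes changed numbered 522 in the third and 211 in the fifth, other chaperone genes 2, 0, 1 and 1 in the first, the third, the fourth and the fifth, and heat shock genes 3 in the second. The causes were not tested. With 1 library left out, all genes changed numbered 147 to 315, 150 to 1586, 124 to 1411, 144 to 946, 177 to 532 and 49 to 169 in the 6 comparisons and 1926 to 2382 in peripheral against thymic OTII cells; other chaperone genes 1 to 1, 0 to 7, 0 to 9, 0 to 2, 1 to 4, 0 to 0 and 4 to 6; and heat shock genes 0 to 0 in the first and 0 to 1 in the second. Near 0, log2 fold changes turned sign: with 1 library left out, Dnajb1 in the first ranged from -0.182 to 0.0772, Hspa8 in the first from -0.0023 (without the third W131AOTII library) to 0.50, and Hspd1 in the second from -0.10 (without the third Cbl-b-/- OTII library) to 0.23; Hspa8 had -0.0022 without the 3 high libraries. A replicate block gave 5 and 2 other chaperone genes in the third and the fifth. Same-numbered libraries had deviations correlated from -0.304 to 0.205, against -0.281 to 0.327 for different numbers, and 3 of 18 libraries correlated best with their own number. No pairing by number was seen, and the sources used here do not say whether same-numbered libraries were prepared together. Hspa1a, with 12 counts or fewer in 10 libraries, is the gene most limited by depth.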
